A study of Eurytemora affinis with 15 samples.

Results

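The comparison described here set whole adult males of the copepod Eurytemora affinis held in an elutriate of Fatouville sediment at 2500 mg/L against males held in water alone. The groups were Fatouville 2500 mg/L, Fatouville 350 mg/L, Tancarville 2500 mg/L, Tancarville 350 mg/L and Control, each with 3 biological replicates, for 15 libraries in all. Every group was collected as a wild population in the Seine estuary, adapted to 15 psu and 15 °C with 12 h of light, fed the alga Rhodomonas salina, and exposed for 72 h. Control received water only, and no group carried any other agent. Males were sorted after the exposure, and each library came from messenger RNA of 1 pool of 30, so no value belongs to a single animal, and the age of the males is given only as adult.

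Genes entered the comparison when their normalised count, the read count divided by 1 scaling factor per library, was at least 10 in at least 3 of the 6 libraries of Fatouville 2500 mg/L and Control. This took 18124 of the 23728 genes in the table, or 76.4%. Of these, 16595 reached 10 in all 6 libraries. A further 126 passed only through the 3 exposed libraries and 25 only through the 3 control libraries. At the edge of the rule, 463 genes reached 10 in exactly 3 libraries, with a median value of 10.1, and 542 genes outside it reached 10 in exactly 2, with a median of 7.08. The same rule gave 17843 genes for Fatouville 350 mg/L with Control and 17964 for Tancarville 2500 mg/L with Control.

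Eurytemora affinis is a calanoid copepod that dominates the plankton of many northern estuaries and feeds fish larvae there, and it lives in the turbid water where sediment is stirred up by tides and dredging. An elutriate is the water phase recovered after sediment has been mixed with water, and it carries fine particles together with metals and organic compounds released from them. Crustacean responses to such mixtures are often followed through genes of detoxification, heat shock, metal binding, cuticle and reproduction. The identifiers in the table are not paired with gene names in the sources used here. The 34 lists of product names drawn up for those functions and for tissues and the other sex therefore matched 0 identifiers. Genes are given by identifier, no role is assigned to them, and the labelled sex and stage could not be checked against marker genes.

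The 15 libraries held 13.64 to 17.21 M reads in genes, and the 6 compared here held 13.96 to 17.1 M. A gene of the comparison had a median of 193 to 217 reads per library. Spearman correlations between libraries of 1 group were 0.976 to 0.992 for the 2 groups compared. Control replicate 3 stood apart from Control replicates 1 and 2, with correlations of 0.980 and 0.979, against 0.992 between replicates 1 and 2. The Fatouville 2500 mg/L libraries correlated with each other no more closely than that, at 0.976 to 0.978. On the first principal component of the 6 libraries, which held 59.9% of the variance, the exposed libraries scored 63.0, 59.5 and 39.2 and the control libraries -75.7, -70.1 and -15.9. The groups did not overlap on it, and the gap between the closest libraries was that to Control replicate 3 (exact permutation p = 0.1, 2-sided, the smallest that 3 against 3 allows). On the second component, with 19.1% of the variance, exposed replicate 1 lay at -47.3 and Control replicate 3 at 55.5, and the groups overlapped.

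After exposure to Fatouville 2500 mg/L, 24 genes fell and 12 rose against Control. Tests were made with limma on log2(value + 1) over all 15 libraries and 18921 tested genes, with a call at an adjusted p under 0.05 (Benjamini-Hochberg). The 36 genes are 0.190% of those tested, the 12 are 0.0634% and the 24 are 0.127%. All 36 had no overlap between the exposed and control libraries. This separation is common in the comparison as a whole. The 3 exposed libraries were all higher or all lower than the 3 control libraries in 4650 of the 18124 genes (25.7%), with 2226 all higher (12.3%) and 2424 all lower (13.4%). Limma called 860 genes without Control replicate 3 and 566 without exposed replicate 1, with all 36 and 35 of the 36 among them. It called 15 and 3 without exposed replicates 2 and 3, and 11 and 2 without Control replicates 1 and 2. Separation is easier to reach with fewer libraries. With any 1 of the 6 libraries left out, 15.0% to 24.9% of genes were all higher and 16.4% to 21.1% all lower. Without Control replicate 3 both shares were 21.1%. Quantile normalisation gave another balance, with 98 genes called higher and 453 lower, and with 8.07% of genes all higher and 20.6% all lower. It moved the median log2 fold change of all tested genes to -0.10, against 0.01 with the deposited scaling, and under it all 36 genes kept their direction and their call.

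The strongest loss among the named genes was that of LOC111712699. It had 664, 439 and 590 normalised counts at Fatouville 2500 mg/L, against 3348, 3434 and 3044 in Control. The groups lay far apart, and every exposed library was below every control library. The means were 564 ± 115 and 3275 ± 205 in Fatouville 2500 mg/L and Control (SD, n = 3), a log2 fold change of -2.55 (SE 0.27, adjusted p = 0.00442 by limma). The same gene had 759, 1240.1 and 1371 normalised counts at Fatouville 350 mg/L. With Tancarville elutriate it had 1256, 589 and 700.0 at 2500 mg/L and 556, 591 and 576 at 350 mg/L. All 12 exposed libraries were thus below the 3 controls, and the Tancarville 350 mg/L libraries were as low as those of Fatouville 2500 mg/L. Set directly against each other, Fatouville 2500 mg/L minus Fatouville 350 mg/L gave a log2 difference of -0.97 (SE 0.27, adjusted p = 0.0907 by limma). The difference from Tancarville 2500 mg/L was -0.53 (SE 0.27, adjusted p = 0.298 by limma), and neither passed the threshold.

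LOC111717563 also fell. It had 107, 58.3 and 76.4 normalised counts at Fatouville 2500 mg/L, against 300.3, 375 and 335 in Control, with no overlap. The log2 fold change was -2.09 (SE 0.34, adjusted p = 0.032 by limma). The call was lost without Control replicate 1 (adjusted p = 0.169 by limma) or 2 (0.148), and without exposed replicate 2 (0.0756) or 3 (0.116). It had 75.9, 165 and 149 normalised counts at Fatouville 350 mg/L. With Tancarville elutriate it had 153, 61.9 and 104 at 2500 mg/L and 51.2, 78.6 and 77.7 at 350 mg/L. Its lowest library was 1 of Tancarville 350 mg/L, and the differences of Fatouville 2500 mg/L from Fatouville 350 mg/L (-0.65, adjusted p = 0.314 by limma) and from Tancarville 2500 mg/L (-0.35, adjusted p = 0.628 by limma) did not pass.

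LOC111697735 had reads in the exposed libraries and hardly any elsewhere. It had 51.3, 13.8 and 39.3 normalised counts at Fatouville 2500 mg/L, against 0.939, 0 and 0 in Control. That is 104 reads in the exposed libraries, 1 read in the controls and 1 read in the other 9 libraries, a ratio to Control of 112 (95% exact interval 19.7 to 4472, counting error only). The log2 fold change was 4.66 (SE 0.87, adjusted p = 0.043 by limma), a fitted value that depends on the pseudocount. The gene passed the filter only through the exposed libraries, so its direction was given by that filter. It was the single 1 of the 36 to do so, and it could not be tested with an exposed library left out. Its call was lost without Control replicate 1 or 2 (adjusted p = 0.169 by limma and 0.152) and with a pseudocount of 0.5 (0.0568), and DESeq2 gave it no adjusted p.

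LOC111698906 rose. It had 213, 307 and 305 normalised counts at Fatouville 2500 mg/L, against 137, 108 and 167 in Control. All exposed libraries were above all controls, and replicate 1 was the closest to them. The means were 275 ± 53.7 at Fatouville 2500 mg/L and 137 ± 29.2 in Control (SD, n = 3), a log2 fold change of 1.00 (SE 0.19, adjusted p = 0.0451 by limma). The call was lost without Control replicate 1 (adjusted p = 0.192 by limma) or 2 (0.152), and without exposed replicate 2 (0.0945) or 3 (0.121). In the other exposures the gene stayed within 96.6 to 164 normalised counts, a range that overlaps Control. The log2 difference was 0.99 from Fatouville 350 mg/L (SE 0.19, adjusted p = 0.0543 by limma) and 0.82 from Tancarville 2500 mg/L (SE 0.19, adjusted p = 0.0668 by limma).

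**Figure D1:**
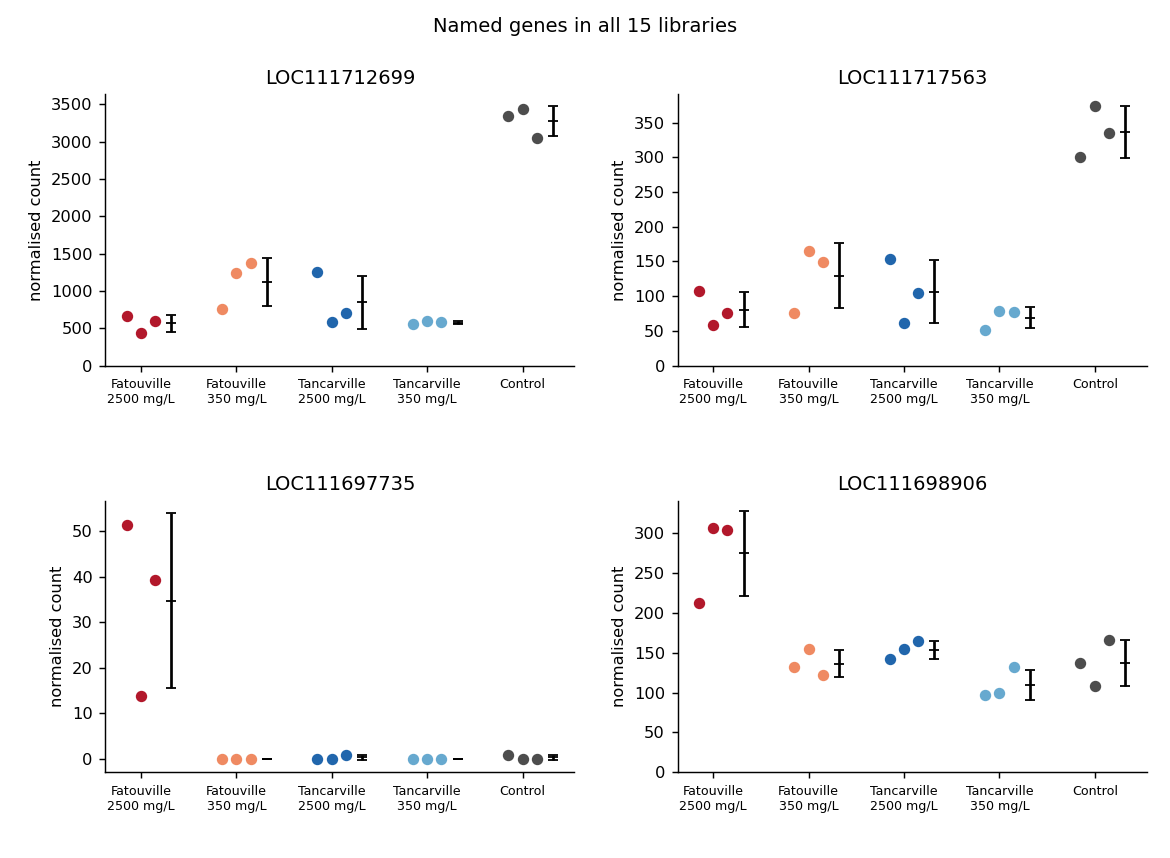
Normalised counts (linear axis) of the 2 genes with the largest called fall (top) and the 2 with the largest called rise (bottom), with 1 point per library in each of the 5 groups and a bar for the mean ± SD of 3 libraries. The 2 genes that fell are low in all 12 exposed libraries, while the 2 that rose are high in the Fatouville 2500 mg/L libraries alone among the 5 groups.

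The 24 genes that fell were moderately to highly expressed. Their means ran from 80.7 to 4718 normalised counts at Fatouville 2500 mg/L (median 553) and from 242 to 7749 in Control (median 1076). Their log2 fold changes were -2.55 to -0.46, with a median of -0.73, and 7 of the 24 were at least 2-fold lower. Together they took 0.136%, 0.135% and 0.143% of the reads at Fatouville 2500 mg/L, against 0.241%, 0.236% and 0.239% in Control. The shares lay close together within each group, and the values come from the genes' selection. Within a gene the coefficient of variation over 3 pools had a median of 6.29% at Fatouville 2500 mg/L and 8.76% in Control. Control replicate 3 was the lowest control library for 10 of the 24 and the highest for 5. LOC111712470, named here after its values were seen, and LOC111712699 were called in each of the 19 alternative settings tried. LOC111712470 had 560, 489 and 618 normalised counts at Fatouville 2500 mg/L, against 1336, 1489 and 1549 in Control (log2 fold change -1.39, SE 0.14, adjusted p = 0.000632 by limma). In the 9 libraries of the other exposures it had 539 to 892, also below every control. It passed against Control at Tancarville 2500 mg/L (adjusted p = 0.00857 by limma) and 350 mg/L (0.00765) too. The other 22 were called in 10 or more of the 19, with a median of 13 over all 24.

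The 12 genes that rose had a median log2 fold change of 0.79. Apart from LOC111697735, their means ran from 159.5 to 2244 normalised counts at Fatouville 2500 mg/L and from 79.8 to 1171 in Control, with log2 fold changes of 0.51 to 1.00. Only LOC111697735 was at least 2-fold higher on the fitted scale. The 12 together took 0.0574%, 0.0639% and 0.0703% of the reads at Fatouville 2500 mg/L, against 0.0320%, 0.0330% and 0.0427% in Control. Control replicate 3 was the highest control library for 9 of the 12 and the lowest for 0. The coefficient of variation had a median of 7.41% at Fatouville 2500 mg/L and 10.8% in Control. No gene of the 12 was called in all 19 alternatives, and each was called in 10 to 14 of them.

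**Figure D2:**
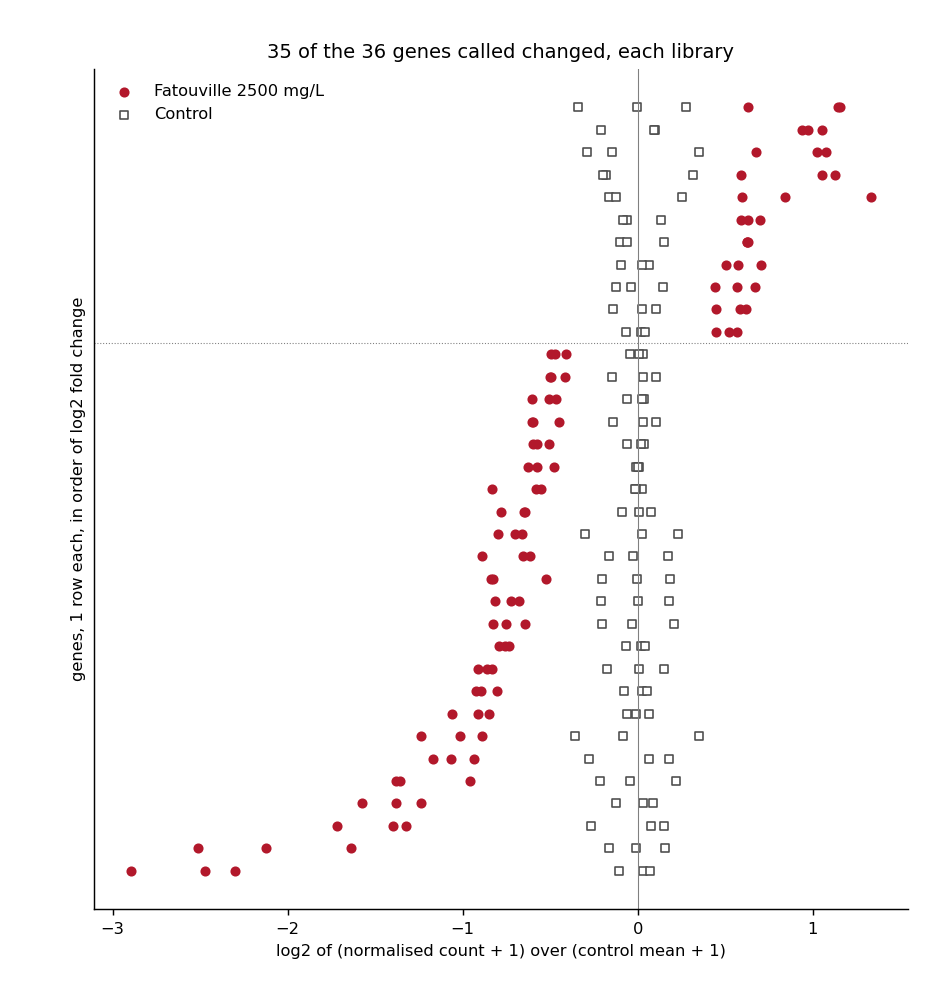
Each row is 1 of 35 of the 36 genes called changed, ordered by log2 fold change, and each point is 1 library as log2 of (normalised count + 1) over (control mean + 1), with filled circles for Fatouville 2500 mg/L and open squares for Control. LOC111697735 is left out because it is near 0 in Control. No row has an exposed point among its control points, and the dotted line parts the 11 genes that rose from the 24 that fell.

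The other exposures were set beside these genes as a description, since all comparisons use the same 3 control libraries and the genes were chosen on the Fatouville 2500 mg/L libraries. For the 24 genes that fell, the median log2 fold change against Control was -0.73 at Fatouville 2500 mg/L and -0.32 at Fatouville 350 mg/L. For Tancarville it was -0.38 with 2500 mg/L and -0.20 with 350 mg/L. Against Control, 24, 0, 3 and 2 of them passed by limma in the 4 exposures in that order. For the 12 that rose, the medians were 0.79, 0.11, 0.16 and -0.05, and 12, 0, 1 and 1 passed. The shares of all tested genes that passed in the other 3 exposures are not given here. The mean of a gene there lay between its Fatouville 2500 mg/L and Control means for 24, 24 and 19 of the 24. For the 12 it did so for 8, 9 and 3. All 9 libraries of those exposures were below every control for 9 of the 24, beside 0.806% of all 18124 genes. They were above every control for 1 of the 12, beside 0.590%. The 3 Fatouville 2500 mg/L libraries were below all 12 other libraries for 16 of the 24 genes, and above all 12 others for 11 of the 12. Over all 18124 genes the shares were 2.64% below and 2.79% above.

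The exposure was also compared with its lower concentration and with the other site at the same concentration, which do not involve Control. Against Fatouville 350 mg/L, limma called 1 gene of 18921 (0.00529%) and edgeR called 0. An unadjusted p under 0.05 was found for 3755 genes (19.8%) by limma and 3900 (20.6%) by edgeR. The 1 gene, LOC111710162, had 1875, 2388 and 2469 normalised counts at Fatouville 2500 mg/L, against 1024, 900.4 and 971 at Fatouville 350 mg/L. The lowest library of the higher concentration exceeded the highest of the lower one. The log2 difference was 1.21 (SE 0.17, adjusted p = 0.0441 by limma, edgeR adjusted p = 0.0563), and the call was lost without exposed replicate 3 or any 1 of the Fatouville 350 mg/L libraries. Without exposed replicate 1 limma called 1103 genes in this comparison. It was also 1 of the 12 genes that rose against Control, where it had 960.1, 1058 and 1495 normalised counts (log2 fold change 0.95, SE 0.17, adjusted p = 0.032 by limma).

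Against Tancarville 2500 mg/L, limma called 0 genes (0%), with 3717 (19.6%) at an unadjusted p under 0.05 and a smallest adjusted p of 0.0651. edgeR called 0, with 3693 (19.5%) unadjusted. Without exposed replicate 1 limma called 997 genes, and without Tancarville 2500 mg/L replicate 3 it called 3. Among the 36 genes, the 95% interval of the difference from Fatouville 350 mg/L excluded 0 for 21 of the 24 that fell and 12 of the 12 that rose. For the difference from Tancarville 2500 mg/L it did so for 16 of the 24 and 11 of the 12. The median log2 differences were -0.44 and 0.69 from Fatouville 350 mg/L, for the genes that fell and rose, and -0.43 and 0.53 from Tancarville 2500 mg/L. These counts follow in part from choosing the genes on the same 3 exposed libraries, and intervals are not adjusted for the number of genes. A p that misses the threshold does not show that the exposures acted alike. DESeq2 on the reads recovered from the values called 1064 genes against Fatouville 350 mg/L and 886 against Tancarville 2500 mg/L. It gave no adjusted p for 412 and 4798 of the 18921 genes in these comparisons, so the counts rest on unlike numbers of genes.

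Most genes moved little. The log2 fold change against Control had a median of 0.01 over the 18124 genes, with its 25th and 75th percentiles at -0.22 and 0.24. For 13986 genes (77.2%) the unadjusted 95% interval of the fold change lay within 2-fold in either direction, and the median distance from the estimate to a bound was 0.39 on the log2 scale. The precision rose with expression. Among 1928 genes with a mean under 25 normalised counts over all libraries, 17.0% had such an interval, and 1 was called. Of 4264 genes between 25 and 100, 66.7% had one and 1 was called. Of 9220 between 100 and 1000, 90.2% had one and 21 were called, 8 higher and 13 lower. Of 2712 genes above 1000, 92.0% had one and 13 were called, 2 higher and 11 lower. In that top class the exposed libraries were all lower than the controls in 25.4% of genes and all higher in 15.9%.

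**Figure D3:**
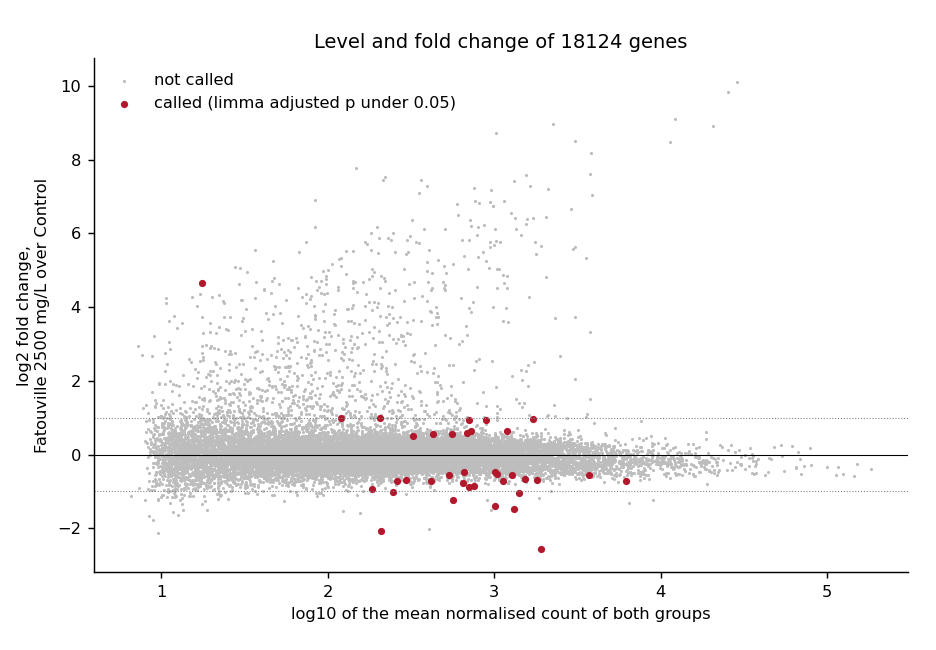
Log2 fold change of Fatouville 2500 mg/L over Control (vertical) against the log10 of the mean normalised count of both groups (horizontal) for 18124 genes, with the 36 genes called changed in red and dotted lines at 2-fold. Above the upper line lie 968 genes, of which limma called 1, and below the lower line 74, of which it called 7. With the deposited scaling shown here, the most abundant genes lie slightly below 0.

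With the deposited scaling, the most abundant genes leaned to the lower side. Of the 10 with the highest mean over all libraries, 9 were lower at Fatouville 2500 mg/L than in Control, with a median log2 fold change of -0.37. Of the 100 most abundant, 83 were lower and 17 higher, with a median of -0.23, beside 0.01 over all genes. The 3 exposed libraries were all lower in 31 of the 100 and all higher in 4, beside 13.4% and 12.3% of all genes. Limma called 0 of them and DESeq2 called 18, beside 0.190% and 8.67% of all tested genes. The limma count of 0 is near its share and is no result about these genes. This lean depended on scaling. Quantile normalisation left 6 of 10 and 58 of 100 lower, with a median of -0.04. Under it 11199 of all 18124 genes were lower, and the median over all tested genes was -0.10. The 100 then did not lean lower than the rest. The second most abundant gene in Control, LOC111698521, named after its values were seen because its mean loss was the largest, had 109933, 111327 and 121266 normalised counts at Fatouville 2500 mg/L, against 202633, 179170.1 and 140089 in Control. The groups did not overlap, and Control replicate 3 was the nearest to the exposed libraries (log2 fold change -0.59, SE 0.15, adjusted p = 0.0643 by limma, edgeR adjusted p = 0.0598, DESeq2 adjusted p = 0.00152).

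Reads of the exposed libraries lay over more genes than those of the controls. The exact permutation tests given here cannot go below p = 0.1 with 3 against 3 libraries. The 1000 most abundant genes of each library took 57.2%, 56.9% and 57.2% of its reads at Fatouville 2500 mg/L, against 61.8%, 61.2% and 59.1% in Control. All 3 exposed values were under every control value and under the lowest of the other 12 libraries, 57.5%. The means were 57.1% ± 0.19 and 60.7% ± 1.46 (SD, n = 3, 2-sided exact permutation p = 0.1). The 100 most abundant genes took 23.3% to 24.8% at Fatouville 2500 mg/L and 25.3% to 28.1% in Control (2-sided exact permutation p = 0.1). Fatouville 350 mg/L replicate 2, at 23.6%, lay within the exposed range. For the 10 most abundant the ranges were 6.54% to 7.46% and 7.38% to 9.58%, which overlap (2-sided exact permutation p = 0.2). Genes with at least 1 read, counted after each library was thinned to 13.64 M reads, numbered 20786, 20827 and 20819 at Fatouville 2500 mg/L, against 20487, 20518 and 20631 in Control (2-sided exact permutation p = 0.1). Every exposed library was above the highest of the other 12, 20677. Unthinned, the exposed libraries held 20867, 20850 and 20833 such genes and the controls 20633, 20631 and 20729, although the exposed libraries were not the deeper ones. With at least 10 reads in the thinned libraries the numbers were 18220, 17931 and 17981 at Fatouville 2500 mg/L, against 17425, 17512 and 17590 in Control, and another exposed library reached 18221. In a bulk pool, fewer cells of a type and less RNA per cell cannot be told apart.

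**Figure D4:**
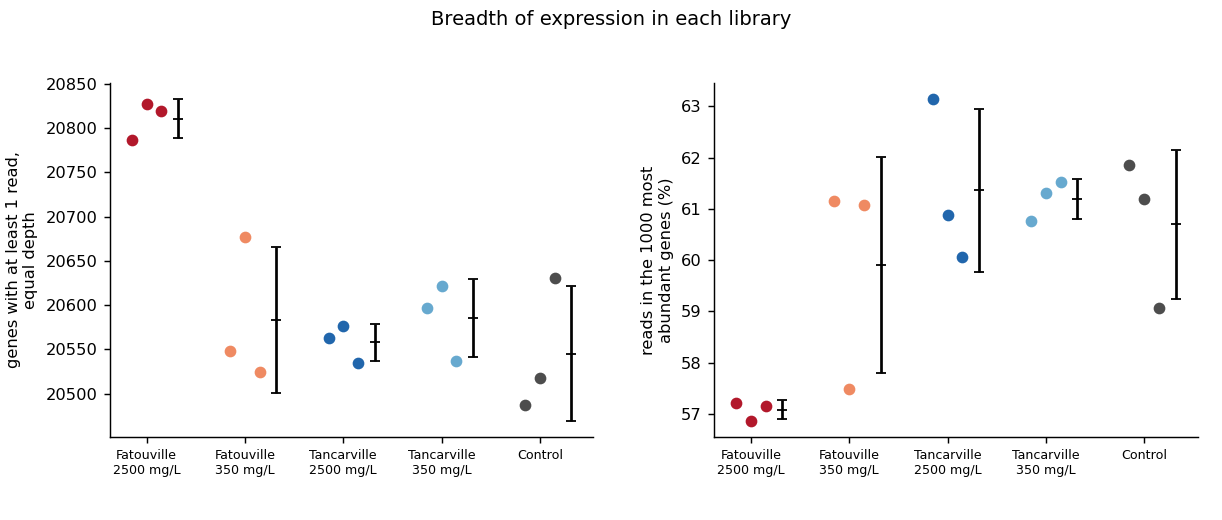
Left, genes with at least 1 read after each library was thinned to the same number of reads, and right, the percentage of a library's reads in its 1000 most abundant genes, with 1 point per library, bars for the mean ± SD of 3 libraries, and vertical axes that do not start at 0. The Fatouville 2500 mg/L libraries lie highest on the left, at 20786 to 20827 genes, and lowest on the right, at 56.9% to 57.2%.

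Few genes were read in all libraries of 1 group and in none of the other. A read in every Fatouville 2500 mg/L library and none in any control was found for 44 genes, with a median of 11 reads and at most 149 over the 3 exposed libraries. The reverse held for 10 genes, with a median of 4.5 reads and at most 30 over the 3 control libraries. Of the 44 genes 1 was among the 18124 compared, and of the 10 the number was 0. In each set 1 gene was also at 0 in the other 9 libraries.

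Most fold changes of 2-fold or more went upward, and limma called few of them. At Fatouville 2500 mg/L, 968 genes were at least 2-fold higher than in Control and 74 at least 2-fold lower on the log2(value + 1) scale. The counts were 520 and 4 at 4-fold and 109 and 0 at 32-fold. Limma called 1 of the 968 and 7 of the 74, beside 0.190% of all tested genes. The groups did not overlap for 556 of the 968 and 52 of the 74. Over all 18124 genes 12.3% were all higher and 13.4% all lower. Genes taken for a large difference between the same libraries separate more often by that selection. Of the 968, 120 had passed the filter only through the exposed libraries, so their direction was given by that filter. Quantile normalisation gave 823 and 299 genes in place of 968 and 74, and leaving out 1 of the 6 libraries gave 904 to 1042 higher and 83 to 136 lower.

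The median of the 968 genes was 173, 108 and 88.6 normalised counts at Fatouville 2500 mg/L, against 14.1, 16.3 and 24.6 in Control. They took 4.33%, 5.72% and 2.42% of the reads of the exposed libraries, against 0.304%, 0.422% and 1.76% in the controls, where Control replicate 3 was the highest. Exposed replicate 1 was the highest of the 3 for 511 genes, replicate 2 for 327 and replicate 3 for 130. Tancarville 2500 mg/L replicate 3 had a median of 130.1 for the same genes and 4.94% of its reads in them. Its median was above those of exposed replicates 2 and 3, although the genes were chosen on the exposed libraries. The 74 genes lower by 2-fold were rarer, with medians of 17.1, 13.8 and 15.9 at Fatouville 2500 mg/L and 30.0, 32.5 and 28.9 in Control. The lowest exposed library was at least 2-fold over the highest control for 200 genes, of which limma called 1, edgeR 2 and DESeq2 156. The highest exposed library was at least 2-fold under the lowest control for 8 genes, of which limma called 4 and DESeq2 5.

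The genes with the largest gains did not share 1 profile over the libraries. The 109 genes at least 32-fold higher had medians of 1052, 1454 and 246 normalised counts at Fatouville 2500 mg/L, against 3.75, 4.78 and 11.4 in Control. In the other groups their median was 1191 in Tancarville 2500 mg/L replicate 3, 141 in replicate 2 of that group and 300 in Tancarville 350 mg/L replicate 1. For a description without a test, 12 genes were taken after their values were seen as those above 1000 normalised counts in every Fatouville 2500 mg/L library and below 10 in Control replicates 1 and 2. Their median was 2773, 5990 and 4746 at Fatouville 2500 mg/L, against 2.82, 0 and 3285 in Control. Control replicate 3 was thus inside the range of the exposed libraries. The median was 1984 in Tancarville 2500 mg/L replicate 3, 384 in Fatouville 350 mg/L replicate 2 and 75.6 in Tancarville 350 mg/L replicate 2, where the 12 genes ranged from 4.08 to 2333. In the remaining 6 exposed libraries of the other groups it was 0.56 to 1.93. The 12 genes took 0.537%, 2.35% and 0.629% of the reads at Fatouville 2500 mg/L and 0.875% of those in Control replicate 3.

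The gene with the largest mean gain, LOC111705506, belongs to these 12 and was named after its values were seen. It had 22055, 99253 and 19940 normalised counts at Fatouville 2500 mg/L, against 0, 0 and 32081 in Control. The log2 fold change was 10.11 with an SE of 5.24 (adjusted p = 0.280 by limma), and the gene was not called. Among the 12 the limma adjusted p was 0.188 to 0.295. The second most abundant of the 12 stood at 0.715 to 0.958 of the first in each of the 7 libraries with more than 100 reads in the set, where the set held 6302 to 334041 reads. What made these pools differ was not tested.

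**Figure D5:**
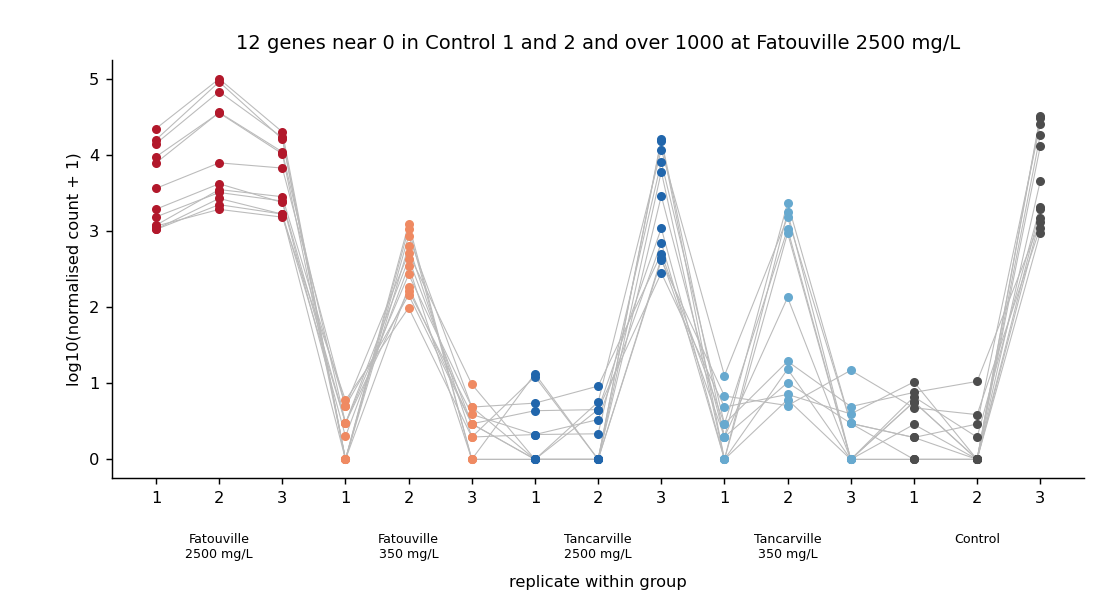
Log10 of (normalised count + 1) of 12 genes in each of 15 libraries, with 1 line per gene and the replicates of each group side by side. The 12 genes are high in the 3 Fatouville 2500 mg/L libraries, in Control replicate 3 and in Tancarville 2500 mg/L replicate 3, lower in replicate 2 of Fatouville 350 mg/L, spread from near 0 to above 1000 normalised counts in replicate 2 of Tancarville 350 mg/L, and near 0 elsewhere.

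The choice of tool changed how many genes were called between Fatouville 2500 mg/L and Control. It could hardly change the direction of the 36, which had no overlap between the exposed and control libraries. Before adjustment, 4303 genes (22.7%) had a limma p under 0.05, 2290 higher and 2013 lower. edgeR's quasi-likelihood test on the recovered reads called 41 genes (0.217%), 18 higher and 23 lower, 35 of them among the 36. DESeq2 called 1641 (8.67%), 903 higher and 738 lower, also with 35 of the 36. It gave no adjusted p for 1513 genes. Of its calls 88.1% had no overlap between the groups, beside 25.7% of the 18124 genes. The calls were chosen for a difference between these same groups, so this share does not test them. Of the calls, 435 were at least 2-fold higher and 22 at least 2-fold lower. The SD of a gene between pools had a median of 0.219 on the log2 scale at Fatouville 2500 mg/L and 0.178 in Control, a difference that was not tested. The authors' deposited Cook's distances measure the pull of a single library on a gene's fit. The largest of the 15 values belonged to exposed replicate 1 for 14.3% of genes and to Control replicate 3 for 8.81%. It belonged to Fatouville 350 mg/L replicate 2 for 17.8%, the highest share, and to Tancarville 2500 mg/L replicate 3 for 9.61%.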

How the data were processed

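The deposited table holds, for 23728 genes and 15 libraries, the authors' normalised counts, a signal in which read counts were divided by 1 size factor per library. It also holds the authors' Cook's distances, a score per gene and library. Of the tools, DESeq2, HTSeq 0.11.2, Salmon and STAR are listed in the submitters' processing notes with no role. The genome build, annotation and strandedness were not given in the sources used here. Reads of near-identical or overlapping genes could therefore not be separated. All values were whole multiples of 1 read (tolerance 1e-06), and whole reads were recovered from them.

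Genes with at least 10 normalised counts in at least 3 of 15 libraries (18921) were tested with limma 3.58.1 in R 4.3.3 after log2(value + 1), with a term per group over all 15 libraries, an intensity trend, robust moderation, and 2-sided Benjamini-Hochberg adjusted p-values. Changes of genes with few reads are understated on this scale. edgeR 4.0.16 (quasi-likelihood, TMM) and DESeq2 1.42.0 were run on the recovered reads as alternatives, and a missing DESeq2 adjusted p was kept missing. The other alternatives changed the scaling, pseudocount, filter, replicate block or libraries. The scripts were tested on simulated data. The p-values measure the spread between pools, which the labels call biological replicates, and libraries of 1 group differed by more than sampling noise (chi-square per degree of freedom at least 11.8). Values per library were compared by exact permutation tests.

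With no source pairing identifiers with names, the rule for named genes took at most 2 called genes that rose and 2 that fell with the largest log2 fold change and all 9 pairings of an exposed with a control library of 1 sign. Genes named outside it are marked. The genes, lists and comparisons were chosen with earlier results of these data known. Positions, sequences and functions of genes are not analysed here.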

Additional observations from a re-analysis of the deposited data

Results flagged for a closer look

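The gene LOC111710162 differed between the 2 concentrations of Fatouville elutriate in a direct test. It was higher by 1.21 on the log2 scale at Fatouville 2500 mg/L than at Fatouville 350 mg/L (SE 0.17, limma adjusted p = 0.0441, n = 3 per group). All 3 libraries of the higher concentration were above all 3 of the lower, and above the 9 libraries of the other groups. With edgeR the adjusted p was 0.0563 and with DESeq2 1.27e-07. The difference from Tancarville 2500 mg/L was 1.09 (limma adjusted p = 0.0651).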

How the results depend on the processing

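Counts of genes higher and lower against Control were 12 and 24 as reported. They were 18 and 23 by edgeR, 903 and 738 by DESeq2, 38 and 22 in a fit of the 2 groups alone, 10 and 23 with a pseudocount of 0.5, 21 and 26 with a pseudocount of 5, and 13 and 23 without the filter. They were 103 and 195 among genes with a mean of at least 50, 19 and 27 with TMM scaling, and 98 and 453 with quantile normalisation. Leaving out 1 library gave 0 to 545 higher and 2 to 315 lower. Leaving out the 3 libraries that stood apart (replicate 3 of Control, replicate 2 of Fatouville 350 mg/L and replicate 3 of Tancarville 2500 mg/L), an alternative chosen after seeing the data, gave 907 and 819, with all 36 among them.

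Against Fatouville 350 mg/L the 1 call became 0 by edgeR, 1064 by DESeq2, 202 in the 2 groups alone, 116 with a pseudocount of 5, 2 without the filter, 0 to 1103 with 1 library left out, and 683 without the 3 libraries. Against Tancarville 2500 mg/L the 0 calls became 886 by DESeq2, 5 in the 2 groups alone, 1 without the filter, 0 to 997 with 1 library left out, and 881 without the 3 libraries. The causes of these differences were not tested.

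The values did not settle whether replicate numbers pair the pools. The deviations of same-numbered libraries of Fatouville 2500 mg/L and Control correlated at 0.1102, -0.128 and 0.0593. Those of Fatouville 2500 mg/L with Fatouville 350 mg/L correlated at -0.123, -0.296 and 0.168, and with Tancarville 2500 mg/L at -0.367, -0.321 and -0.406. With the replicate block over all groups the counts against Control were 1 and 9, and 71 and 11 in the blocked fit of the 2 groups alone. The block gave 189 and 278 calls against Fatouville 350 mg/L in these 2 fits, and 14 against Tancarville 2500 mg/L in the fit of the 2 groups alone.

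No direction of the 4 rule-named genes was reversed in any alternative in which they were tested. For most alternatives this was fixed by the selection, since the rule required every exposed-control pairing to have the same sign. Leaving out libraries, changing the pseudocount or filter, or adding the replicate block could not reverse that sign. These alternatives therefore do not test the direction. LOC111698906 also missed the threshold in the 2 groups alone (limma adjusted p = 0.0754). With the replicate block over all groups the limma adjusted p was 0.0612 for LOC111698906 and 0.0688 for LOC111717563 and LOC111697735, and in the blocked fit of the 2 groups alone it was 0.125 for LOC111698906. Of the genes under 25 normalised counts, 17.0% had an interval within 2-fold. Which of the called genes share function or position is not analysed here.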
